A study of Homo sapiens with 5 samples.

Results

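The 34 genes described here are those of glycolysis, from glucose uptake to lactate export, together with genes that respond to low oxygen. They were chosen by name, with earlier results of these data known, so their counts are not those of a set picked blind. Each gene's level is the sum of the reads of every transcript that GENCODE v44 assigns to it. All 34 were measured, among 26426 genes with at least 1 read, and all 34 passed the filter for testing, among 13492 genes that did. The samples are 5 libraries of RNA from NCI-H1975 and HCC827, established human lung adenocarcinoma cell lines. RNA of NCI-H1975 carrying the spike-in set called sequins mix A and RNA of HCC827 assigned sequins mix B were combined by mass at 5 levels, with 0, 25, 50, 75 or 100% of it from HCC827. A library's name puts NCI-H1975 first and HCC827 second (100:0 is pure NCI-H1975 RNA), and there was 1 library for each ratio. Both lines were grown to near confluence in the same medium, and the labels name no agent, no genotype and no treatment that lowers oxygen.

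Glycolysis splits glucose into pyruvate in a chain of enzyme steps, and lactate dehydrogenase converts pyruvate to lactate, which cells export. Several steps are served by paralogues, which are related genes with different tissue distribution and regulation. When oxygen is low, the HIF-1α protein, the product of HIF1A, is stabilised and raises transcription of many of these genes, and tumours often run glycolysis at a high rate even with oxygen present. HIF-1α is controlled mainly at the level of protein stability, which read counts do not measure.

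The libraries held 2932250 to 4058751 reads each, and 98.5 to 98.74% of the human reads fell on transcripts matched to a gene. All 7 epithelial markers had reads in every library, from 19064 reads summed in 100:0 to 42772 in 0:100. PTPRC, CD3E and DCN, which mark leukocytes and fibroblasts, were at 0 reads throughout, and the 3 endothelial genes together had 3 or 4 reads per library. CD68 had 192 to 302 reads, and the fibroblast collagen gene COL1A1 fell from 532 reads in 100:0 to 19 in 0:100. The mean length of the transcripts hit by reads fell from 2581 bases in 100:0 to 2180 in 0:100, and the mitochondrial share of human reads was 5.65% in 100:0 and 8.85% in 0:100. Sequin reads numbered 5475 in 100:0 and 0 in 0:100, although the labels assign mix B to HCC827. They are part of the library totals used for scaling and enter no gene's count.

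Levels are given as CPM, which here means reads per 1000000 library reads after scaling by TMM, edgeR's method of making library sizes comparable. Runs of 5 values always start at 100:0 and end at 0:100, with HCC827 RNA increasing. A gene's slope is its log2 change, as fitted, from pure NCI-H1975 RNA to pure HCC827 RNA over the 5 libraries, with its standard error (SE) and a Benjamini-Hochberg adjusted p over all 13492 genes from edgeR's quasi-likelihood test. A gene is said to have risen or fallen, always from the NCI-H1975 end to the HCC827 end, only where that adjusted p was under 0.05. The test compares 2 RNA preparations, 1 per cell line, so p-values measure scatter about a straight line on the log2 scale and not differences between cultures. A linear mixture is curved on that scale, so a large slope can understate the difference between the pure libraries. For SLC2A3 the slope was -2.60 and the log2 ratio of 0:100 over 100:0 was -4.71. Levels are shares of a fixed RNA mass, so a lower level per cell and more total RNA per cell cannot be told apart.

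Of the 34 genes, 22 passed the threshold (64.7%), against a background of 45.8% of all genes tested. The 8 that rose were 23.5% of the 34, the same as the 23.5% of all genes that rose. The 14 that fell were 41.2%, against 22.3% of all genes. These backgrounds were not matched for read depth. At least 1000 reads in all were held by 18 of the 34 genes and by 2846 of the 13492 tested. The part of depth in these shares was not tested. The median slope of the 34 was -0.28, and that of all genes was -0.03. Counts were then taken by role. Of the 17 enzymes from hexokinase to lactate dehydrogenase, 8 rose, 5 fell and 4 did not pass, with a median slope of 0.38. Of the 17 transporters, regulatory kinases and hypoxia genes, 0 rose, 9 fell and 8 did not pass, with a median slope of -0.38. Scaling by library totals alone moved the median of all genes from -0.03 to -0.44, and on that scale 6 of the 34 rose and 21 fell (22.2% of calls rose, against 36.4% with TMM). HK1, ALDOC, PGK1, PFKFB2, BNIP3, EGLN3 and SLC2A1 fell on that scale only, and ALDOA and ENO2 no longer rose. Comparing the 2 libraries richest in NCI-H1975 with the 2 richest in HCC827, in place of the slope, left 5 that rose and 5 that fell. The 12 calls lost there were those of HK2, PFKL, PFKP, ALDOA, PGAM1, ENO2, PKM, LDHA, SLC16A3, PFKFB4, CA9 and BNIP3L. The background shares above are for TMM and the slope, and none are given for these alternatives.

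**Figure D1:**
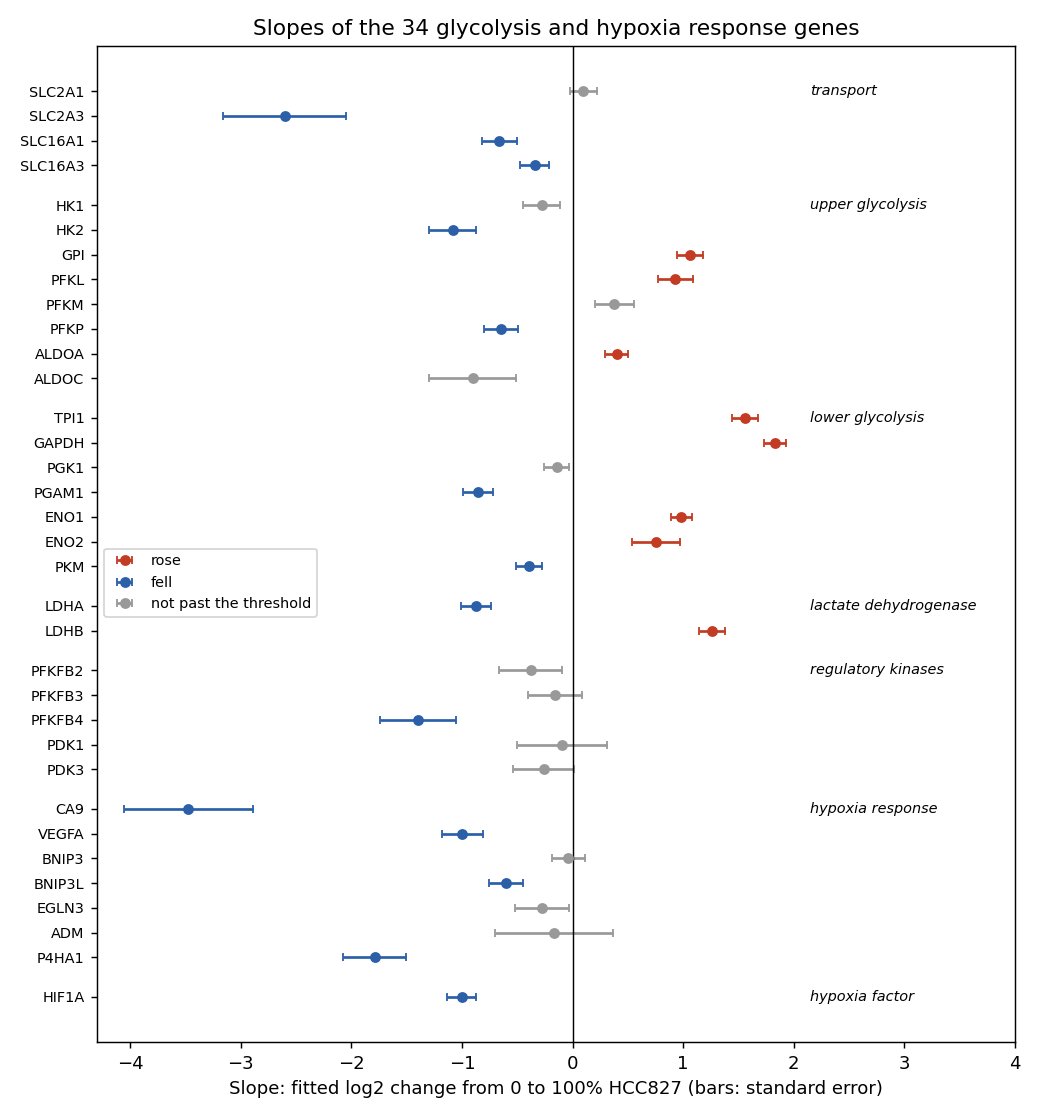
Slope of each of the 34 genes on the HCC827 share of RNA mass, on the horizontal axis as fitted log2 change from 0 to 100% HCC827, with bars for the standard error and genes grouped by role. Points right of the line at 0 are higher in HCC827: the 8 that rose, in red, are all enzymes, and CA9 lies farthest left at -3.48.

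The later steps of the pathway held the largest rises. GAPDH, the enzyme that oxidises glyceraldehyde 3-phosphate (chr12:6534512-6538374, GRCh38), was read at 3002, 4789, 6135, 8608 and 10981 CPM. It was higher in each library than in the one before, and the pure HCC827 library held 3.66-fold more than the pure NCI-H1975 library (slope 1.83 ± 0.10 SE, edgeR adjusted p = 6.72e-07). TPI1, which interconverts the triose phosphates (chr12:6867119-6870948), stood at 407, 602, 767, 925 and 1275 CPM. It too ran in order over all libraries and was 3.14-fold higher in 0:100 (slope 1.56 ± 0.12 SE, edgeR adjusted p = 2.35e-06). ENO1, the main enolase (chr1:8861000-8879190), had 1343, 1673, 1925, 2314 and 2679 CPM. Its rise was 1.99-fold between the pure libraries, again in order (slope 0.98 ± 0.09 SE, edgeR adjusted p = 7.71e-06). ENO2, the enolase best known from neurons (chr12:6913745-6923698), was far less abundant, at 24.5, 29.7, 26.4, 38.1 and 41.6 CPM. The first 3 libraries were close in level and the last 2 were higher (slope 0.76 ± 0.22 SE, edgeR adjusted p = 0.0119). Without the 0:100 library the slope of ENO2 was 0.70 with an edgeR adjusted p of 0.107, and with library totals it was 0.35 with 0.186.

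Not every enzyme of this stretch rose. PGAM1, which moves the phosphate of phosphoglycerate and sits between PGK1 and enolase in the pathway (chr10:97426191-97433444), was at 299, 243, 226, 213 and 151 CPM. It ran downward in order and was 1.98-fold lower in 0:100 (slope -0.85 ± 0.14 SE, edgeR adjusted p = 2.8e-04). PKM, the pyruvate kinase gene that forms pyruvate (chr15:72199029-72231819), had 763, 678, 600, 647 and 556 CPM. It was highest in 100:0 and lowest in 0:100, with 50:50 below 25:75 (slope -0.39 ± 0.12 SE, edgeR adjusted p = 0.0165). The PKM call was lost without 100:0 (slope -0.29, edgeR adjusted p = 0.116) and without 0:100 (slope -0.36, edgeR adjusted p = 0.0904). PGK1, which makes the first ATP of the pathway, ranged only from 345 to 391 CPM and did not pass (slope -0.14 ± 0.11 SE, edgeR adjusted p = 0.317). With library totals PGK1 passed as lower (slope -0.55, edgeR adjusted p = 0.00126). Per kilobase of transcript, GAPDH was the most abundant of the 34 genes in every library, at 2549 reads per kilobase per 1000000 reads in 100:0 and 9332 in 0:100.

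The early steps, from glucose phosphorylation to aldolase, went both ways. GPI, which turns glucose 6-phosphate into fructose 6-phosphate (chr19:34359480-34402413), was read at 153, 189, 216, 253 and 331 CPM. It rose in order and was 2.16-fold higher in 0:100 (slope 1.06 ± 0.12 SE, edgeR adjusted p = 1.88e-05). HK2, the hexokinase that is often induced in tumours (chr2:74834127-74893359), had 58.0, 54.7, 46.2, 41.2 and 24.2 CPM. It fell in order, 2.40-fold between the pure libraries (slope -1.08 ± 0.21 SE, edgeR adjusted p = 0.00119), and the slope was -0.69 without the 0:100 library, with an edgeR adjusted p of 0.0308. HK1, the widely expressed hexokinase, was at 61.0, 54.2, 59.0, 55.9 and 46.5 CPM. Its first 4 libraries were close in level and the trend did not pass (slope -0.28 ± 0.17 SE, edgeR adjusted p = 0.192). With library totals HK1 passed as lower (slope -0.69, edgeR adjusted p = 0.00438).

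Phosphofructokinase, which commits sugar to glycolysis, is encoded by 3 paralogues. PFKL, the liver type (chr21:44300051-44327376), stood at 52.1, 69.5, 72.6, 78.3 and 110 CPM and rose 2.11-fold between the pure libraries (slope 0.93 ± 0.16 SE, edgeR adjusted p = 4.16e-04). PFKP, the platelet type (chr10:3066333-3137718), had 109, 94.5, 86.5, 88.8 and 62.8 CPM and fell 1.73-fold (slope -0.64 ± 0.15 SE, edgeR adjusted p = 0.00441). Their order by level per kilobase was thus exchanged between the pure libraries. Without 0:100 the slope of PFKP was -0.41 and the edgeR adjusted p was 0.108. PFKM, the muscle type, had 34.8 to 44.6 CPM and did not pass (slope 0.38 ± 0.18 SE, edgeR adjusted p = 0.0988). Counted per kilobase, PFKP made up 60.1% of the family in 100:0 and 33.1% in 0:100, and PFKL 22.3% and 47.4%.

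Aldolase splits the 6-carbon sugar. ALDOA, its main form here (chr16:30064164-30070457), was at 937, 997, 1002, 1169 and 1223 CPM, in order (slope 0.40 ± 0.10 SE, edgeR adjusted p = 0.00753). That 1.30-fold difference was not kept when a trend on transcript length was removed (slope 0.22, edgeR adjusted p = 0.102), and with library totals the slope was -0.009. ALDOC, the brain form, had 28.3, 13.9, 25.4, 14.3 and 12.6 CPM. Its 75:25 library was as low as 25:75, and it did not pass (slope -0.90 ± 0.40 SE, edgeR adjusted p = 0.0785). It passed without the 75:25 library (slope -1.19, edgeR adjusted p = 0.0145) and without the 50:50 library (slope -1.02, edgeR adjusted p = 0.0408), but not without 25:75 (adjusted p = 0.201) or 0:100 (0.299), and without 100:0 its slope was -0.44 with an edgeR adjusted p of 0.516.

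The lactate dehydrogenase pair moved in opposite directions. LDHA, the subunit that predominates in glycolytic tissue and a textbook HIF-1 target (chr11:18394560-18408425), was read at 512, 445, 372, 371 and 260 CPM. LDHB, the subunit that predominates in heart (chr12:21635342-21757857), was read at 470, 658, 816, 1001 and 1140 CPM. LDHA fell 1.97-fold between the pure libraries (slope -0.87 ± 0.14 SE, edgeR adjusted p = 2.21e-04), and LDHB rose 2.42-fold (slope 1.26 ± 0.12 SE, edgeR adjusted p = 7.78e-06). Both ran in order over all libraries. Per kilobase, LDHB exceeded LDHA in every library, by ratios of 1.74, 2.81, 4.22, 5.10 and 8.57. Counted by reads, LDHA was higher than LDHB in 100:0, at 512 against 470 CPM. The order in 100:0 thus rests on the division by transcript length, and whether that division suits nanopore reads was not tested. LDHA made up 36.5% of the pair per kilobase in 100:0 and 10.5% in 0:100.

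**Figure D2:**
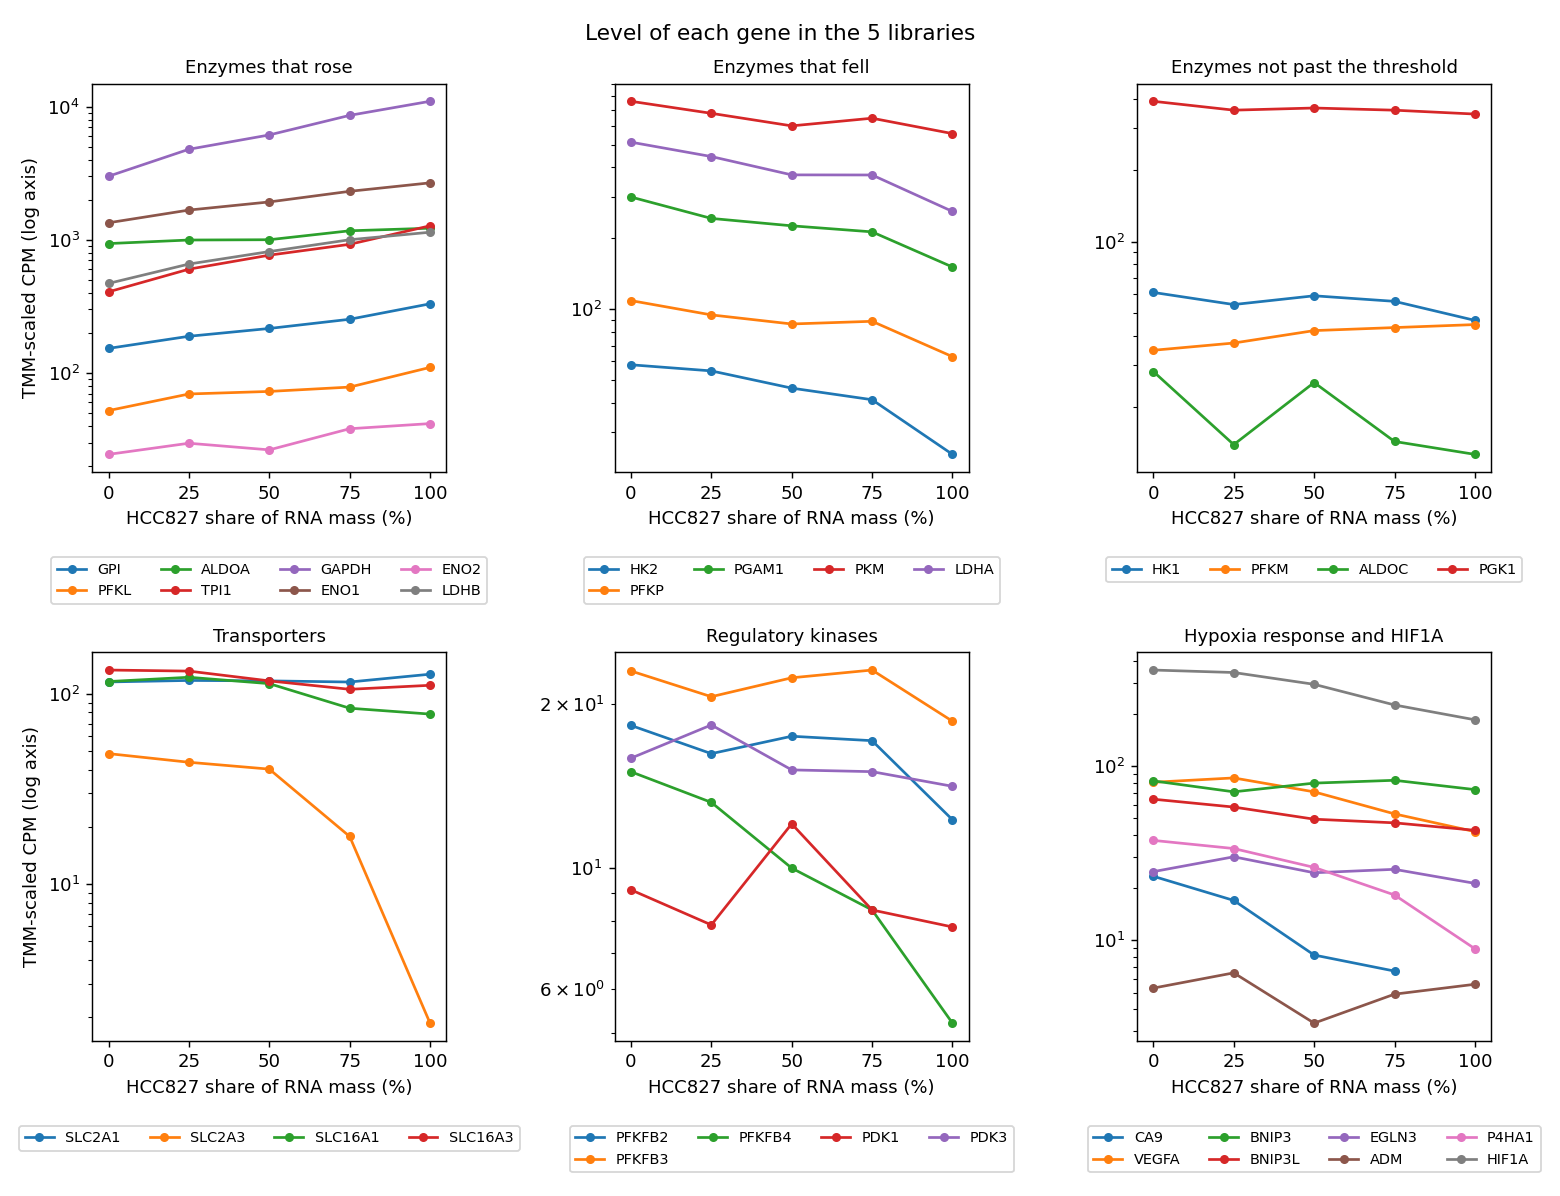
TMM-scaled CPM of each gene (vertical axis, log scale, a different range in each panel) against the HCC827 share of RNA mass in percent (horizontal axis), with 1 point per library and no replicates. GAPDH rises from 3002 to 10981 CPM and SLC2A3 falls from 48.6 to 1.86 CPM; CA9 had 0 reads at 100% HCC827 and has no point there on the log axis.

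The 4 transporters bring glucose in or carry lactate out, and 0 of them rose while 3 fell. Of all genes tested, 23.5% rose and 22.3% fell. SLC2A1, encoding the basal glucose transporter GLUT1 (chr1:42925353-42958893), was at 116, 118, 117, 116 and 127 CPM. These values were nearly level and did not pass (slope 0.10 ± 0.12 SE, edgeR adjusted p = 0.546). With library totals SLC2A1 passed as lower, with a slope of -0.31. SLC2A3, encoding GLUT3, the high-affinity glucose transporter of neurons (chr12:7919230-8019007), was at 48.6, 43.8, 40.3, 17.8 and 1.86 CPM, from 165, 189, 157, 51 and 5 reads. The first 3 libraries were close to each other and the last was almost empty (slope -2.60 ± 0.55 SE, edgeR adjusted p = 0.00202). Between the pure libraries it was 26.1-fold lower, and without 0:100 its slope was -1.51 with an edgeR adjusted p of 0.00917. SLC2A3 made up 31.6% of the 2 glucose transporters per kilobase in 100:0 and 2.79% in 0:100. Its near copy SLC2A14 had 5, 4, 1, 0 and 1 reads.

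The monocarboxylate transporters carry lactate across the membrane. SLC16A1, encoding MCT1 (chr1:112911847-112957593), had 116, 123, 113, 84.2 and 78.5 CPM. Its first 3 libraries were alike and the last 2 lower, 1.48-fold between the ends (slope -0.66 ± 0.16 SE, edgeR adjusted p = 0.00445). Without 0:100 its slope was -0.58 with an edgeR adjusted p of 0.0576. SLC16A3, encoding MCT4, the form tied to lactate export and induced by hypoxia (chr17:82217934-82261129), had 134, 132, 117, 106 and 111 CPM. That fall of 1.20-fold was close to the threshold (slope -0.34 ± 0.13 SE, edgeR adjusted p = 0.0421). The call did not last when 100:0 (edgeR adjusted p = 0.111), 75:25 (0.0995), 50:50 (0.0601) or 25:75 (0.0994) was left out, with slopes from -0.29 to -0.36, nor with no read filter (0.0513) or with the DESeq2 Wald test (0.131). SLC16A3 overlaps CSNK1D on the opposite strand, which had 2490 reads against its own 2083, and whether strand was used in counting was not given in the sources used here.

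**Figure D3:**
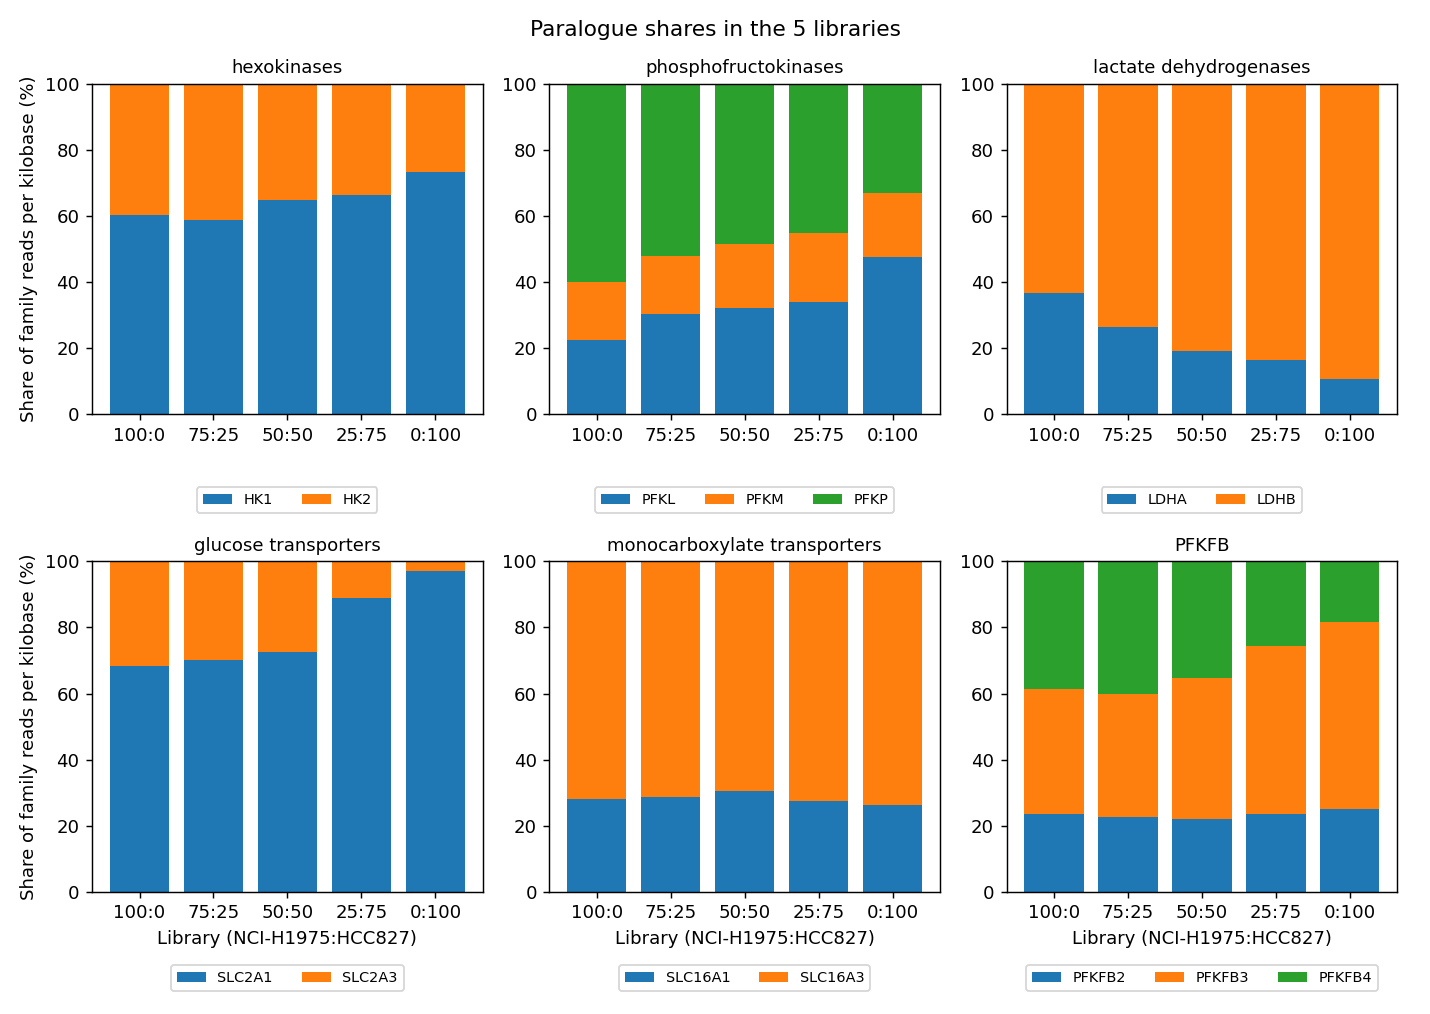
Share of each paralogue in its family (vertical axis, percent of the family's reads per kilobase) in the 5 libraries (horizontal axis), for 6 families. The LDHA share shrinks from 36.5 to 10.5% and the SLC2A3 share from 31.6 to 2.79%, while SLC16A1 is at 28.2% in 100:0 and 26.2% in 0:100. Shares depend on the division by transcript length, and whether it suits nanopore reads was not tested.

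Of the 5 regulatory kinases, 1 passed, against 45.8% of all genes tested. PFKFB4, a bifunctional enzyme that sets the level of fructose 2,6-bisphosphate, the activator of phosphofructokinase (chr3:48517684-48562015), was at 15.02, 13.2, 10.0, 8.39 and 5.21 CPM, from 51, 57, 39, 24 and 14 reads. It fell in order, 2.89-fold between the ends (slope -1.40 ± 0.34 SE, edgeR adjusted p = 0.00512). Without 0:100 the slope was -1.17 with an edgeR adjusted p of 0.0604. Its paralogues PFKFB2 (12.3 to 18.3 CPM) and PFKFB3 (18.6 to 23.1 CPM) did not pass, with slopes of -0.38 ± 0.28 SE and -0.16 ± 0.24 SE. PDK1 and PDK3, kinases that switch off pyruvate dehydrogenase, did not pass either, with slopes of -0.10 ± 0.41 SE and -0.26 ± 0.28 SE. PDK1 had 21 to 47 reads per library, and its SE was the largest of the 5.

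Among the 7 hypoxia response genes, 4 fell, 3 did not pass and 0 rose, where 22.3% of all genes fell and 23.5% rose. CA9, which encodes carbonic anhydrase IX, a cell surface enzyme widely used as a marker of hypoxia (chr9:35673928-35681159), was at 23.3, 16.9, 8.21, 6.64 and 0 CPM, from 79, 73, 32, 19 and 0 reads. It was present in each library that held NCI-H1975 RNA, in order, and not detected in pure HCC827 RNA, where 0 of 3092629 reads allows up to 3 (slope -3.48 ± 0.59 SE, edgeR adjusted p = 3.93e-04). Set against that floor of 3 reads, CA9 was at least 20.9-fold lower in 0:100. ARHGEF39, which overlaps CA9 on the opposite strand, had 58, 74, 86, 54 and 63 reads and so did not share its course. P4HA1, a collagen prolyl hydroxylase subunit (chr10:73007217-73096974), had 37.4, 33.6, 26.2, 18.2 and 8.92 CPM. It fell in order, 4.19-fold between the ends (slope -1.79 ± 0.28 SE, edgeR adjusted p = 2.43e-04).

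VEGFA, the vascular growth factor (chr6:43770184-43786487), was read at 80.7, 85.5, 71.1, 53.1 and 42.0 CPM. The 2 NCI-H1975-rich libraries were alike and the HCC827-rich ones lower, 1.92-fold between the ends (slope -0.997 ± 0.18 SE, edgeR adjusted p = 7.45e-04). BNIP3L, a mitophagy receptor (chr8:26383054-26505636), was at 64.5, 58.1, 49.5, 47.2 and 42.8 CPM and fell 1.51-fold (slope -0.60 ± 0.16 SE, edgeR adjusted p = 0.00736). Without 100:0 its slope was -0.57 with an edgeR adjusted p of 0.0688. Its close relative BNIP3 ranged from 71.1 to 82.8 CPM in no order (slope -0.04 ± 0.15 SE, edgeR adjusted p = 0.851). With library totals BNIP3 passed as lower (slope -0.45, edgeR adjusted p = 0.0260). EGLN3, an oxygen-sensing prolyl hydroxylase that marks HIF-1α for destruction, ranged from 21.2 to 30.1 CPM (slope -0.28 ± 0.24 SE). Its slope was -0.58 without 100:0 and -0.09 without 0:100, and with library totals it passed as lower (slope -0.68, edgeR adjusted p = 0.0285). ADM, which encodes the vasodilator peptide adrenomedullin, had 13 to 28 reads per library (slope -0.17 ± 0.53 SE), a depth at which a change of the size seen in VEGFA would lie within 2 SE.

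HIF1A itself (chr14:61695513-61748259) was at 356, 345, 295, 224 and 184 CPM. The mRNA fell in order and was 1.93-fold lower in 0:100 (slope -1.004 ± 0.14 SE, edgeR adjusted p = 7.43e-05). With HIF1A counted, 5 of the 8 hypoxia genes fell, against 22.3% of all genes.

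The inner libraries were compared with a linear mixture of the pure ones. Of 102 inner values (34 genes in 3 libraries), 88 lay between the 2 pure libraries (86.3%), against 67.3% over all genes tested. Values ran in order over all 5 libraries for 17 of the 34 genes (50%, against a background of 28.5%). Neither background was matched for read depth. For the 18 genes with at least 1000 reads in all, the median log2 departure from the linear mixture of the pure libraries was -0.02 in 75:25, -0.05 in 50:50 and -0.01 in 25:75. Single genes departed further, and those 18 ranged from -0.29 to 0.27 over the 3 libraries. SLC2A3, at 40.3 CPM in 50:50, was above the 25.2 CPM of the mixture, and CA9, at 8.21 CPM, was below its 11.6 CPM. ALDOC in 75:25 departed by -0.81 on the log2 scale. The differences between the pure libraries were at least 2-fold upward for 5 of the 34 genes (background 16.2% of all genes) and at least 2-fold downward for 6 (background 18.4%).

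PKM yields the M1 and M2 pyruvate kinases by using 1 of 2 exons of equal length, M1 being typical of muscle and brain and M2 of proliferating cells. The exons are shown because the M1 and M2 shares rest on them. In GRCh38, on the minus strand, the M1 exon of PKM-201 is chr15:72203022-72203188 and the M2 exon of PKM-202 is chr15:72202454-72202620. Both have 167 bases, printed 5′ to 3′ with capitals at the 62 positions where they differ. The other 105 positions (62.9%) are identical, and 910 bases lie between either exon and the 3′ end of its transcript.
PKM M1 exon: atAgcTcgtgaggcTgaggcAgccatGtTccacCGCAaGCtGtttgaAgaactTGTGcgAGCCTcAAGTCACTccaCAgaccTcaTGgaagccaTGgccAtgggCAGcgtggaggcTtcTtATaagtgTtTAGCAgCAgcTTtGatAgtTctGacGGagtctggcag
PKM M2 exon: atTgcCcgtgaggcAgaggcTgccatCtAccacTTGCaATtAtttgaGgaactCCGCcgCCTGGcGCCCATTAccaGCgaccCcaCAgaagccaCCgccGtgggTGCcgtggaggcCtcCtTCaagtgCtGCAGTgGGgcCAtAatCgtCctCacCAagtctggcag

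Of 11202 PKM reads, 5201 (46.4%) were assigned to transcripts with the M2 exon, 3296 (29.4%) to transcripts with the M1 exon and 2705 (24.1%) to transcripts with neither as an exon of these bounds. Among reads on transcripts with either exon, the M1 share was 38.6% in 100:0 (95% Wilson interval 36.5 to 40.8), 39.4% in 75:25, 37.9% in 50:50, 37.9% in 25:75 and 40.3% in 0:100 (37.5 to 43.1). The intervals overlapped throughout, and the trend was 0.72 percentage points from end to end (exact permutation test over 120 orders, two-sided p = 0.6, adjusted over 5 class shares 0.6). PKM-202, the reference M2 transcript, took 24.1, 23.1, 23.7, 22.7 and 22.5% of PKM reads. PKM-201, with the M1 exon, took 22.2, 23.6, 22.2, 22.5 and 24.8%. PKM-211 took 20.9 to 23.4%. It is a retained-intron transcript counted under neither exon, although it shares its last 1078 bases with PKM-202 and that stretch reaches over the M2 exon. PKM-203, a shorter M2 form of 457 residues, took 21.3 to 24.4%, and PKM-215, an M1 form, took 5.43 to 5.82%. These 4 leading transcripts were thus nearly equal, with a ratio of 1.01 between the top 2, where the median over 7455 genes was 1.27. PKM-202 and PKM-201 share their last 920 bases, and how reads that match several transcripts were divided was not given in the sources used here, so the assigned M1 and M2 shares may not be exon usage.

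ALDOA showed the same evenness over 18019 reads. ALDOA-219 took 21.5, 21.8, 21.1, 22.8 and 22.4% of them, in no order (trend 1.19 percentage points, exact permutation test, two-sided p = 0.233, adjusted 0.292). ALDOA-208, a retained-intron transcript, took 21.1 to 22.3%, and ALDOA-218, the reference transcript, 20.3 to 23.01%. ALDOA-206 held 10.6 to 12.1% and the retained-intron ALDOA-212 held 9.81 to 11.8%. ALDOA-219 and ALDOA-218 share their last 1320 bases. A gene without a symbol, ENSG00000285043, overlaps ALDOA on the same strand and had 4877 reads.

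VEGFA is spliced into growth factor forms that differ in how tightly they bind the cell matrix, the shortest being the most diffusible. Its 1185 reads were spread more widely. VEGFA-206, which encodes a form of 147 residues, held 16.1, 15.2, 18.4, 25.7 and 14.2%, highest in 25:75. VEGFA-205 (371 residues) held 13.3 to 17.1%, VEGFA-226 (395 residues) 7.96 to 17.9%, VEGFA-204 (327 residues) 10.5 to 17.7% and the retained-intron VEGFA-212 9.21 to 15.04%. Grouped by the growth factor they encode, judged from protein length, transcripts of the VEGFA121 form took 49.7, 45.3, 46.8, 53.9 and 54.5% of classed reads, which numbered 179, 247, 188, 102 and 66. The VEGFA165 form took 26.8, 27.1, 27.1, 28.4 and 28.8%, in order by 2.10 percentage points, the smallest p that 5 libraries can give (exact permutation test, two-sided p = 0.0167, adjusted 0.0833). Those shares rest on 48, 67, 51, 29 and 19 reads, and the permutation test does not include their counting error. The 95% Wilson intervals of the VEGFA165 form were 20.9 to 33.7 in 100:0 and 19.3 to 40.6 in 0:100, far wider than the trend. The VEGFA189 form took 23.5, 27.5, 26.1, 17.6 and 16.7%, a trend of -9.39 percentage points that did not pass (exact permutation test, two-sided p = 0.167, adjusted 0.292). The 95% Wilson intervals of that form were 17.9 to 30.2 in 100:0 and 9.57 to 27.4 in 0:100. VEGFA-226 has 3535 bases in the deposited tables and 3609 in GENCODE v44, so its place in the VEGFA189 class is uncertain. It held 180 reads and VEGFA-222, the other transcript of that class, held 8. The VEGFA189 share and its trend thus rest on VEGFA-226, and the other class shares depend on it through their total.

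In edgeR's test of isoform usage, none of PKM, ALDOA and VEGFA passed (edgeR diffSpliceDGE, not an exact test, Simes p = 0.698, 0.210 and 0.553, adjusted 1.000 for each), against a background of 0.402% of 7455 genes that did and 3.86% at an unadjusted p under 0.05. The gene-level F test of the same fit gave adjusted p-values of 0.957, 0.913 and 0.950.

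**Figure D4:**
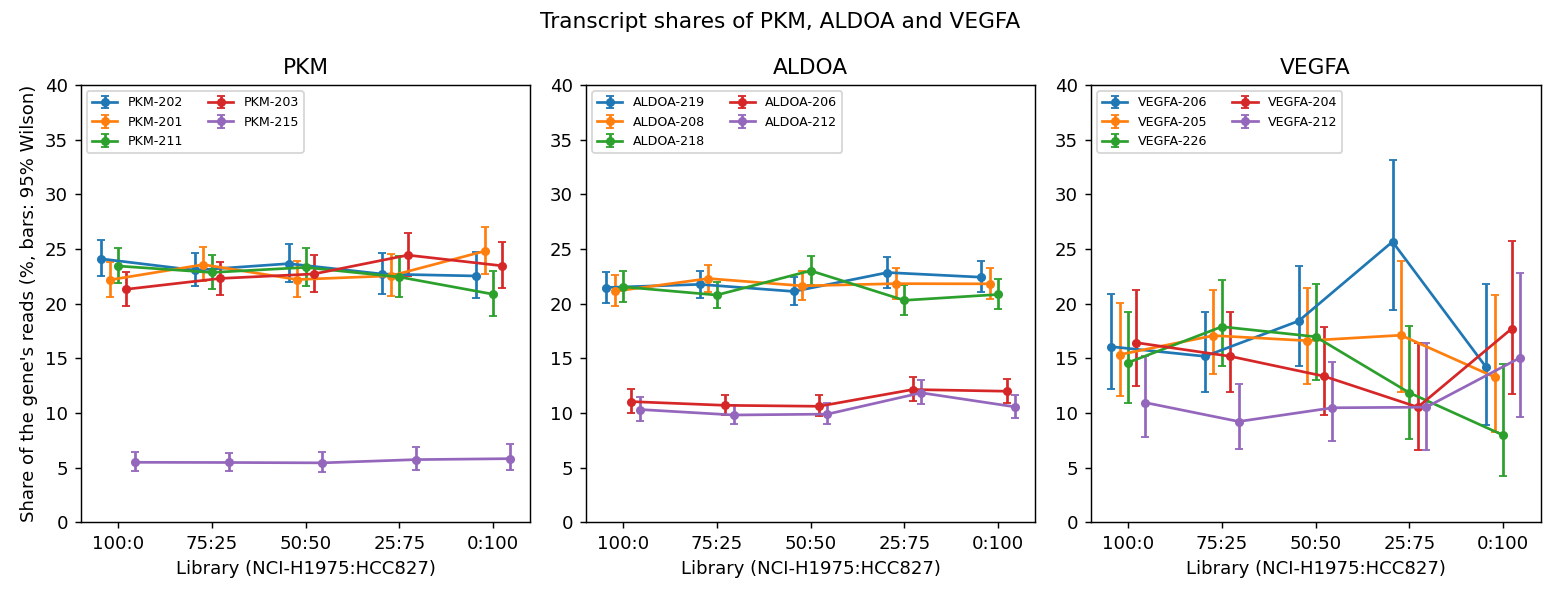
Share of each gene's reads on its 5 leading transcripts (vertical axis, percent) in the 5 libraries (horizontal axis), with 95% Wilson intervals as bars, for PKM, ALDOA and VEGFA. The 4 leading PKM transcripts lie between 20.9 and 24.8% in every library, and the VEGFA intervals are wider because 1185 reads cover them.

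Start-site windows are shown for CA9 and P4HA1, which fell most among the genes with a window, for GAPDH, which rose most, and for the lactate dehydrogenase pair, since the HIF complex binds a short core. Sequences come from RefSeq (GRCh38.p14), 250 bases before to 50 after a start, 5′ to 3′ on the gene's strand, and 29 of the 34 genes matched by symbol, without VEGFA, SLC2A3, PFKFB2, SLC16A1 and BNIP3L, of which 4 fell. The letters searched were ACGTG and GCGTG on both strands, CACGT and CACGC being their complements. A CACGTG holds a match on each strand, and matches were counted with overlap. Capitals mark every match, and those are CA9 at chr9:35673678-35673977 (1 match), P4HA1 at chr10:73096817-73097116 (1, minus strand), LDHA at chr11:18394313-18394612 (6), GAPDH at chr12:6535014-6535313 (2) and LDHB at chr12:21657793-21658092 (1, minus strand).
CA9: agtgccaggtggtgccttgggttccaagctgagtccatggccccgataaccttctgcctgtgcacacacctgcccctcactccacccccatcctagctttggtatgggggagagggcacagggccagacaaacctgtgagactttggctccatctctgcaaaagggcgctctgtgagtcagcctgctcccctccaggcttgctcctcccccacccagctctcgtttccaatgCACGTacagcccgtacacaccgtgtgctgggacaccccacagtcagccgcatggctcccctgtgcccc
P4HA1: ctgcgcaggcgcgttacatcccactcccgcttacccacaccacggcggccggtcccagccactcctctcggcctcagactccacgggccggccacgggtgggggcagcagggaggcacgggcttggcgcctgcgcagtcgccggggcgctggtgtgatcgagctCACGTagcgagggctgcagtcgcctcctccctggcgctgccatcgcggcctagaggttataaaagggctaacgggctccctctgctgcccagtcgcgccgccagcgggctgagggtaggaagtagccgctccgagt
LDHA: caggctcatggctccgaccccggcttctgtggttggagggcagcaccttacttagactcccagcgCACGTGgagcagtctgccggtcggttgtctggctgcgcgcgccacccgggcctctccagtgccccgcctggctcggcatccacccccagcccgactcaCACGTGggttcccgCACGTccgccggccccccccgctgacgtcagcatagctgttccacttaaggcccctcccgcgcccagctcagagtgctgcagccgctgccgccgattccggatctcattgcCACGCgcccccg
GAPDH: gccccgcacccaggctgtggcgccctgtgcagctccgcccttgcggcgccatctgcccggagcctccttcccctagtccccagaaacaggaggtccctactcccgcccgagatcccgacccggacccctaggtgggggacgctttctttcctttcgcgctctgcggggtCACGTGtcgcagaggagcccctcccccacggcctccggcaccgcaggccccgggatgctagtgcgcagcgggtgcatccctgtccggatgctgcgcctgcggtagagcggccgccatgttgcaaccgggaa
LDHB: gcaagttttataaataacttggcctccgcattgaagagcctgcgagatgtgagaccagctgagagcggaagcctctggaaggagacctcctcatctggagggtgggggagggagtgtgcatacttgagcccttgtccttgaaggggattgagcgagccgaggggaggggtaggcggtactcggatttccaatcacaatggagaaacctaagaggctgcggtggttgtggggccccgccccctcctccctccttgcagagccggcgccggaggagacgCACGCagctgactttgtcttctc

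The CA9 match starts 18 bases before the start site, and the P4HA1 match 86 bases before. Of the 56 windows of the 29 genes, 37 held the letters (66.1%), against 48.4% of all 35116 windows of the same length. Counted by gene, 27 of 29 had a match in some window (93.1%), against 52.4% of 27305 genes. The 29 genes had more windows per gene, 56 in all against 35116 for the 27305, and so more places for a match. By call, 8 of 8 matched genes that rose had the letters, as did 9 of 10 that fell and 10 of 11 that did not pass. A match describes letters in a window and not binding.

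Position on the chromosome moved with several of these results. Chromosome 12 holds 6 of the 34 genes, of which GAPDH, TPI1, ENO2 and LDHB rose, SLC2A3 fell and PFKM did not pass. Between GAPDH and ENO2, 15 other genes were tested, with a median slope of 1.40, and 11 rose and 2 fell. The 690 other genes of chromosome 12 had a median slope of 0.22, and 29.3% rose. SLC2A3 fell although 13 of 23 other genes within 1 Mb of it rose. Chromosome 10 holds HK1, PFKP, PGAM1, PFKFB3, BNIP3 and P4HA1, of which 3 fell and 0 rose. Its 486 other genes had a median slope of -0.60, and 39.5% of them fell. Within 1 Mb of SLC2A1, 18 of 28 other genes rose and 0 fell, and within 1 Mb of SLC16A3, 37 of 53 rose and 0 fell. Near HIF1A, in a window of the same size, 5 of 9 other genes fell and 1 rose (median slope -0.81). Near PKM, 4 of 9 fell and 0 rose (median slope -0.71). These regions were chosen after their values were seen, and their part in the slopes of the members was not tested.

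Transcript length also moved with the slope. Other genes with a mean transcript under 1500 bases had a median slope of 0.32, and those of 3000 bases or more had -0.22. GAPDH (1186 bases) and LDHB (1118 bases) are short, as is CA9 (1156 bases), which fell. With a length trend removed in each library, a setting chosen after seeing the data, 7 of the 34 genes rose and 15 fell. The shares of all genes in that setting are not given.

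Some members share sequence or position with other genes. BNIP3P1, a pseudogene of BNIP3, had 109 reads, and PGAM1P8, a pseudogene of PGAM1, had 109, while all 156 pseudogenes named after members had 248 reads together. PGAM4, a paralogue of PGAM1 that overlaps PGK1 on the opposite strand, is not among them. It had 112, 111, 84, 56 and 59 reads, 422 in all. ENO2 overlaps LRRC23 (301 reads against 535 of its own) and EGLN3 overlaps SPTSSA (1225 against 439), both on the same strand. GAPDH overlaps an lncRNA on the opposite strand with 6278 reads against its own 108924. Adding the pseudogene reads, without those of PGAM4, left the same counts, 8 that rose and 14 that fell.

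The other genes of these pathways were taken from lists that were also chosen with earlier results of these data known. Of 16 tested among 23 other glycolytic enzymes and paralogues, 3 rose, 7 fell and 6 did not pass (median slope -0.47). Over all genes tested, 23.5% rose and 22.3% fell, and the counts of this and the following lists are to be read against those shares. LDHC, the testis lactate dehydrogenase that neighbours LDHA, fell from 31 reads to 0, at least 8.19-fold (slope -3.22 ± 0.76 SE). PGM2L1, a glucose 1,6-bisphosphate synthase, fell 1.99-fold (slope -1.20 ± 0.19 SE). ENO3, the muscle enolase, rose from 1 read to 15 (slope 2.33 ± 0.86 SE, edgeR adjusted p = 0.0398).

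Of 14 tested among 15 genes of the HIF system, 3 rose, 5 fell and 6 did not pass (median slope -0.36, all genes -0.03), 8 calls in 14 where the background is 45.8%. EGLN2, a HIF prolyl hydroxylase, rose from 12.1 to 86.3 CPM (slope 2.47 ± 0.25 SE), whereas its paralogue EGLN1 fell from 40.4 to 12.3 CPM (slope -1.47 ± 0.26 SE). ELOC, which encodes elongin C of the VHL ubiquitin ligase, rose 3.09-fold (slope 1.58 ± 0.15 SE). ARNT2, a partner of HIF alpha subunits, fell from 19 reads to 2 (slope -2.84 ± 0.74 SE).

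Among 38 tested of 41 other hypoxia response genes, 4 rose, 20 fell and 14 did not pass (median slope -0.67), against 23.5% and 22.3% of all genes that rose and fell. LOX, the collagen cross-linking oxidase, fell from 354 reads to 2 (slope -3.38 ± 0.54 SE). STC1, a secreted glycoprotein, fell from 94 reads to 1 (slope -3.31 ± 0.51 SE). CA12, a carbonic anhydrase related to CA9, fell from 73 reads to 0, at least 19.3-fold (slope -3.16 ± 0.61 SE). DDIT4, an inhibitor of mTORC1 named after its values were seen, rose from 156 to 457 CPM (slope 1.52 ± 0.12 SE).

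The pentose phosphate pathway, which draws glucose 6-phosphate away from glycolysis, rose in 6 of its 7 tested genes of 8 listed, with 0 that fell (median slope 0.80), against 23.5% of all genes that rose. TKT, transketolase, rose from 348 to 1275 CPM (slope 1.81 ± 0.16 SE, edgeR adjusted p = 5.51e-06). PGD, PGLS and TALDO1 rose 1.957-fold, 1.80-fold and 1.85-fold. The list for pyruvate in mitochondria holds its carriers MPC1 and MPC2, the pyruvate dehydrogenase subunits with their kinases and phosphatases, and pyruvate carboxylase. Of its 12 genes, 2 rose, 5 fell and 5 did not pass, both carriers among the last (median slope -0.39), against 23.5% and 22.3% of all genes that rose and fell. PDP1, a phosphatase that reactivates pyruvate dehydrogenase, fell from 178 to 37.9 CPM (slope -1.97 ± 0.23 SE), and its paralogue PDP2 rose 2.235-fold (slope 1.08 ± 0.20 SE). DLD, the dihydrolipoamide dehydrogenase subunit, fell 2.79-fold, and PDK2, a pyruvate dehydrogenase kinase, rose 1.94-fold. Of 3 tested genes of gluconeogenesis among 6, PCK2, mitochondrial PEP carboxykinase, rose 2.09-fold and the other 2 did not pass.

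**Figure D5:**
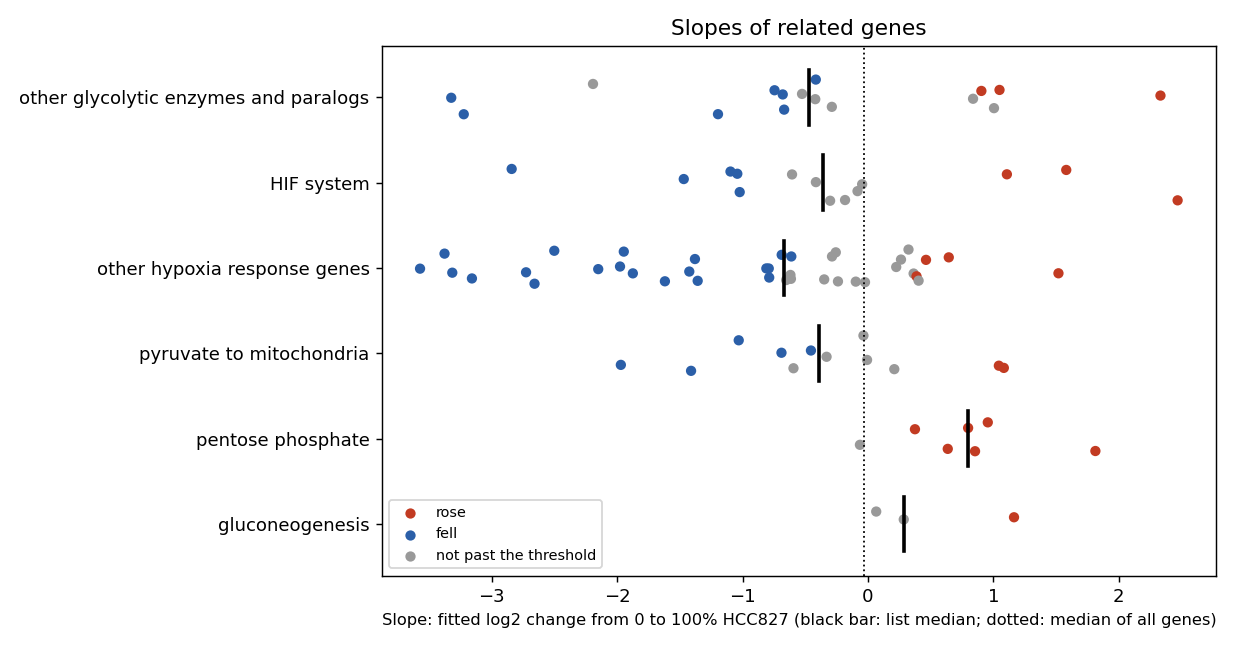
Slope of each tested gene in the 6 related lists (horizontal axis, fitted log2 change from 0 to 100% HCC827), with a black bar at each list's median and a dotted line at the median of all genes (-0.03). Other hypoxia response genes lie mostly left of the dotted line, with a median of -0.67, and 6 of the 7 pentose phosphate genes lie right of it.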

How the data were processed

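Poly(A) RNA of the mixtures was made into barcoded PCR cDNA, size-selected, and all libraries were read on 1 nanopore PromethION flow cell, per the labels' protocols. The authors deposited an estimated count of reads per transcript for each library, unscaled. The submitters' processing notes name minimap2 2.24, Salmon 1.9.0 and GRCh38; the annotation release and use of strand were not given in the sources used here. Counts were rounded (2 values in 100:0 were not whole), 161 identifiers listed more than once were summed, and transcripts were assigned to genes through GENCODE v44 (224076 of 227751 matched). PCR copies count as separate reads, so intervals and floors cover counting error only.

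Slopes were fitted to gene sums with edgeR 4.0.16 (R 4.3.3; glmQLFit, glmQLFTest, TMM) over all 5 libraries, for genes with at least 10 reads in at least 2 libraries. SE is |slope|/√F. The biological coefficient of variation was 9.11%. A library under 3 reads was set to 3 for ratios. Isoform usage was tested with diffSpliceDGE, and 5 class shares with exact permutation tests (scipy 1.17.1). Alternatives were DESeq2 1.42.0, limma 3.58.1, other scalings, filters and left-out libraries. The code was tested on simulated data. The members and lists were chosen with earlier results of these data known. Values in all libraries are given for members past the threshold and a fixed set, and at most 4 genes of each related list past the threshold are named, by absolute slope (some that the rule picks are not reported here); up to 5 transcripts a gene are named by reads.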

Additional observations from a re-analysis of the deposited data

How the results depend on the processing

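Of the 22 genes that passed, 9 kept their call under every alternative that could be fitted: ENO1, GAPDH, GPI, HIF1A, LDHB, P4HA1, SLC2A3, TPI1 and VEGFA. SLC2A3 and CA9 were not fitted where 10 reads were required in every library. The shares of all genes that rose or fell under the alternatives are not given, so the counts below have no background. Members that rose and fell numbered 8 and 14 with DESeq2 size factors, limma-voom, no read filter and pseudogene reads added, 8 and 13 with the DESeq2 Wald test, and 7 to 8 and 10 to 14 with each library left out in turn. The 2 against 2 comparison gave 5 and 5, and over the related lists 11 and 19 against 19 and 37; leaving out each library gave 13 to 16 and 29 to 36 there. With library totals the lists gave 13 and 49, 2 members were at least 2-fold higher and 12 lower in 0:100 (5 and 6 with TMM), and the slopes of PFKM (-0.03101), ALDOA (-0.008615) and SLC2A1 (-0.31) turned negative. The scalings differ in which library size they use; the cause of the other changes was not tested. Slopes near 0 changed sign with a library left out: SLC2A1 ran from -0.006017 to 0.1349, PFKFB3 from -0.249 to 0.04981, PDK1 from -0.2501 to 0.1834, BNIP3 from -0.1296 to 0.09872 and ADM from -0.5792 to 0.05486. The M1 share trend of PKM ran from -1.459 to 1.354 percentage points. With the length trend removed, PDK1 had 0.29 and PDK3 0.10, and BNIP3 had 0.02548 with 2 against 2. No paired analysis was possible because each ratio had 1 library. ADM, PDK1, CA9, PFKFB4, PDK3, PFKFB2, PFKFB3 and ALDOC had fewer than 100 reads in every library, and depth limits these 8 most.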
